A study of Mus musculus with 16 samples.

Results

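Stromal progenitors of visceral adipose tissue (VAT) were compared with those of subcutaneous adipose tissue (SAT) in wild-type mice. The comparison holds 8 of the 16 libraries of the series, 4 from each depot, chosen by their labels for genotype (WT, strain C57BL/6J) and tissue. The other 8 libraries are 4 SAT and 4 VAT libraries of Nr4a1 knockout mice (strain B6;129S2-Nr4a1tm1Jmi/J, "KO" in the labels). All mice were 4 weeks old and no treatment is named. The cells are adipose progenitors; the column names of the count table carry the word MACS, magnetic cell sorting, and the sources used here do not give the sort markers, the sex of the animals or the anatomical pads behind SAT and VAT. The labels call the 4 libraries of a group biological replicates without tying them to separate animals, so the p-values measure the spread between these libraries. The strain of the WT mice also differs from the mixed background of the KO mice, which cannot be told apart from the knockout in any comparison of the genotypes. RNA was sequenced as single reads from a library kit that does not mark strand, so reads of a gene and an overlapping antisense gene cannot be told apart.

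Adipose progenitors are fibroblast-like cells of the stroma that divide, make the extracellular matrix of the fat pad and give rise to adipocytes. Visceral fat lies inside the abdominal cavity under a mesothelium, the sheet of epithelium-like cells that lines the cavity, and develops near mesoderm that expresses factors such as Wt1. Subcutaneous fat lies under the skin and shares with the limb and body wall a set of homeobox and T-box factors. Homeobox and T-box genes encode DNA-binding proteins that give cells a positional address in the embryo, and fibroblasts of the adult keep much of that address. Nr4a1 encodes a nuclear receptor that is induced within minutes of a stimulus.

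Each WT library held 34655519 to 49437944 counts in SAT and 42383156 to 46293781 in VAT, the KO libraries 35761196 to 55551845, and values below are CPM, counts scaled to a common library size with TMM factors, given in the order of replicates 1 to 4. The markers of adipose progenitors were abundant in both depots: Pdgfra, a receptor of platelet-derived growth factor, was at 809 ± 154 CPM in SAT and 667 ± 75.8 CPM in VAT (mean ± SD, n = 4), and Dcn, the matrix proteoglycan decorin, at 9365 ± 1766 CPM in SAT and 9783 ± 291 CPM in VAT. Ptprc, the leukocyte antigen CD45, was at 9.05 ± 3.06 CPM in SAT and 12.3 ± 1.37 CPM in VAT, and Pecam1, the endothelial antigen CD31, at 0.775 ± 0.162 CPM in SAT and 1.84 ± 0.337 CPM in VAT. Mesothelial markers, described below, were not low in VAT. Their list summed to 1467 to 2682 CPM in WT VAT and to 68.3 to 90.19 CPM in WT SAT. Nr4a1 was at 1087 ± 99.3 and 1535 ± 97.5 CPM in WT SAT and VAT and at 201 ± 6.11 and 309 ± 12.8 CPM in KO SAT and VAT; which part of the gene the KO reads cover was not analysed here. A pair of WT libraries stood apart. SAT replicate 3 had the lowest correlation of log2 CPM with its own group (0.9763, against 0.9824 to 0.987 in the other 7 libraries). VAT replicate 2 carried transcripts of the male reproductive tract: the list of such markers summed to 412.9 CPM there, to 25.18, 38.15 and 20.59 CPM in the other VAT libraries and to 11.55 to 14.43 CPM in SAT. Without VAT replicate 2, 5468 genes were called, and without SAT replicate 3, 6276, against 6187 with all libraries.

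The promoters of 4 transcription factors that separated the depots are printed first, because the factors of the visceral and the body wall lists moved as groups in opposite directions. Each sequence runs from 250 bases before to 50 bases after the start of the gene, 5′ to 3′ on the gene's strand, from RefSeq (GRCm38.p6, the mm10 assembly). Capitals mark matches on either strand to 5 motifs. They are TATAAA of the TATA box, the CCAAT box, the GC box with its letters GGGCGG, the core AGATAA that GATA factors bind, and the E-box in the form CACGTG. No match to 1 motif overlaps a match to another in these 4 sequences. Bnc1 and Gata5 were taken for the largest fitted increases in VAT, and Lhx8 and Lmx1b for the largest fitted decreases. The choice was among the called factors of the 2 lists that had a mean of at least 1 CPM and an entry in the promoter table. This leaves out Wt1, Alx1, Irx5 and Irx1, and Tbx15 is on neither list.

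Bnc1, at chr7:81992250-81992549, and Gata5, at chr2:180334630-180334929, both on the minus strand, were the pair higher in VAT:
Bnc1: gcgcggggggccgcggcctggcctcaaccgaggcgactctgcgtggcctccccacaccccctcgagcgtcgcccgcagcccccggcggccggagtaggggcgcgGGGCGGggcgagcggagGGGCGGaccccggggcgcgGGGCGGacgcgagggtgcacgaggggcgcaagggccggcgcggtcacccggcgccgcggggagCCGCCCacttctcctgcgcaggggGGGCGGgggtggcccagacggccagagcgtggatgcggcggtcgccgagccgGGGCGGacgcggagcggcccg
Gata5: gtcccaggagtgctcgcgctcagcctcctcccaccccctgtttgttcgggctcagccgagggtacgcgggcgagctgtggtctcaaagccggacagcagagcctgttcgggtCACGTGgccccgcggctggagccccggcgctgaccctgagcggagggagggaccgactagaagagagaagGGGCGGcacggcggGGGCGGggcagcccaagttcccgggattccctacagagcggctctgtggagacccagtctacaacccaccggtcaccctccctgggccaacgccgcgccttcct

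Lhx8, at chr3:154330511-154330810, and Lmx1b, at chr2:33641049-33641348, both on the minus strand, were the pair lower in VAT:
Lhx8: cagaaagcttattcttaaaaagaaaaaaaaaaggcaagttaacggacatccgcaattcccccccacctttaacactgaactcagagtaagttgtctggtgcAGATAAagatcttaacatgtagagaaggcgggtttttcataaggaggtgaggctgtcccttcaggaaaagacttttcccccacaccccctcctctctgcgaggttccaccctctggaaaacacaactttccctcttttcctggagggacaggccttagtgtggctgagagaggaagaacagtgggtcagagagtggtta
Lmx1b: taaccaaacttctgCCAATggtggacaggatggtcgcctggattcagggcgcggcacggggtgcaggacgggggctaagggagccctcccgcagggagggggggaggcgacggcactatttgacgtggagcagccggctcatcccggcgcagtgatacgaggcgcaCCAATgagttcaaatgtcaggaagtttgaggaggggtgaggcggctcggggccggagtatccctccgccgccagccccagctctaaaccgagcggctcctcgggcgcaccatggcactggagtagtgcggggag

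The Bnc1 promoter held 6 GC boxes in a window of 83.3% G and C, and the Gata5 promoter 2 GC boxes and 1 E-box. The Lhx8 promoter held 1 AGATAA match and the Lmx1b promoter 2 CCAAT matches. Over all 27025 promoters of the table, GGGCGG stood in 35.9%, CCAAT in 37.9%, TATAAA in 14.2%, AGATAA in 11.4% and CACGTG in 7.24%. A GC box stood in 61.1% of the promoters of tested genes, in 49.5% of those of genes at least 2-fold higher in VAT and in 46.8% of those at least 2-fold lower. AGATAA stood in 6.74% of the promoters of tested genes, 9.25% of those at least 2-fold higher and 10.3% of those at least 2-fold lower. Genes that rose and genes that fell thus both held fewer GC boxes and more AGATAA matches than the tested genes at large; these shares are descriptions with no test, and a match is a run of letters, not a site.

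Of 16842 genes tested, 6187 differed between WT VAT and WT SAT, 36.7% of those tested (edgeR's quasi-likelihood test, Benjamini-Hochberg adjusted p under 0.05). Of these, 3217 (19.1%) were higher and 2970 (17.6%) lower in VAT, where changes are log2 values of VAT over SAT given ± SE. Counts of called list members below are to be read beside these shares. A change of at least 2-fold was found for 1545 (9.17%) and 910 (5.40%). Changes of at least 8-fold were 522 higher and 165 lower. The median log2 change over all tested genes was 0.00, with quartiles of -0.27 and 0.31. The lowest CPM of one depot lay above the highest of the other for 5744 genes (34.1% of those tested). The share of calls that were higher, 52.0% here, was 85.6% when libraries were scaled to their totals alone, because that scaling moved the median of all genes to 0.29, so all changes are relative to the TMM scale. When the 2-fold size was itself tested, 1368 genes passed (879 higher and 489 lower), against 2455 by the first rule.

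Factors of visceral mesoderm were among the genes with the largest increases in VAT. Of 18 tested factors of this list, 13 were higher and 1 lower in VAT, with a median log2 change of 1.20, beside 19.1% and 17.6% of all genes. The list holds 23 genes of the table, and those with few reads in every group were not tested, so that a scarce gene can enter the test through the depot where it is high. Wt1, the Wilms tumour factor of embryonic kidney, gonad and mesothelium (chromosome 2, 105126529 to 105173616, plus strand, mm10), stood at 0, 0.0255, 0 and 0 CPM in SAT and at 111, 91.2, 102 and 106 CPM in VAT. Wt1 had 1 read over the 4 SAT libraries, and the depots stood at a ratio of 15958 (95% counting interval 2864 to 630352; adjusted p = 4.26e-15). Tcf21, a bHLH factor of visceral mesenchyme (chromosome 10, 22817281 to 22820174, minus strand), stood at 0.388, 0.97, 0.467 and 0.472 CPM in SAT and at 143, 154, 148 and 168 CPM in VAT. All 4 VAT libraries lay far above SAT, with a log2 change of 8.06 ± 0.18 (adjusted p = 6.48e-15). Intervals here cover counting error only.

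Bnc1, a zinc finger factor of mesothelium and other epithelia whose promoter is printed above, was at 0 in all SAT libraries and at 33, 18, 34.7 and 38 CPM in VAT, at least 1609-fold higher (adjusted p = 4.69e-09; the bound takes 3 counts over the SAT group). Gata4 and Gata5, zinc finger factors of heart, gut and gonad mesoderm, were also at 0 in SAT. They reached 2.28, 1.43, 1.56 and 1.15 CPM and 6.65, 4.4, 6.81 and 8.81 CPM in VAT, at least 82.3-fold and 347-fold higher (adjusted p = 3.78e-06 and 9.82e-09). Gata6, the third of these factors, was present in both depots, at 27.5, 28.2, 27.7 and 28.8 CPM in SAT and at 72.8, 65.7, 70.6 and 68.3 CPM in VAT. Its groups did not overlap, and its log2 change was 1.31 ± 0.08 (adjusted p = 1.86e-09). Isl1, a LIM homeobox factor, rose on the log2 scale by 5.93 ± 0.63 (adjusted p = 1.06e-06), or by 6.70 (adjusted p = 3.73e-06) without SAT replicate 2. The 1 member called lower in VAT was Osr2, a zinc finger factor of palate and limb mesenchyme, which stood at 125, 102, 115 and 98.6 CPM in SAT and at 10.1, 15.4, 22 and 5.48 CPM in VAT. Its log2 change was -3.06 ± 0.39 (adjusted p = 7.75e-06). Wt1 and Bnc1 are also mesothelial genes: summed mesothelial markers were at 68.3 to 90.19 CPM in SAT and at 1467 to 2682 CPM in VAT, and the part of mesothelial RNA in these factors was not tested. In bulk RNA, fewer cells of a type and less RNA per cell cannot be told apart.

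Factors of limb and body wall went the other way. The table holds 41 of them. Of 31 tested members, 3 were higher (9.68%) and 26 lower (83.9%) in VAT, beside 19.1% and 17.6% of all genes. The median log2 change was -2.20, and 24 of the decreases were at least 2-fold. Lhx8, a LIM homeobox factor also known from brown adipocytes, stood at 4.59, 6.97, 5.74 and 4.95 CPM in SAT and at 0, 0.0207, 0 and 0 CPM in VAT. It had 1 read over the 4 VAT libraries and was 1082-fold lower there (95% counting interval 194 to 42770; adjusted p = 7.27e-11). Irx5 and Irx1, Iroquois homeobox factors, fell by a log2 change of -7.41 ± 0.47 (adjusted p = 1.86e-09) and -7.23 ± 0.71 (adjusted p = 3.54e-07). Lmx1b, which marks dorsal limb mesenchyme, was at 5.25, 4.8, 3.27 and 3.73 CPM in SAT and at 0.0217, 0.124, 0 and 0.0583 CPM in VAT, a log2 change of -6.31 ± 0.43 (adjusted p = 4.22e-09), or -7.16 (adjusted p = 6.15e-09) without VAT replicate 2. En1, a homeobox factor of ventral limb ectoderm and of dermal fibroblasts, was at 23.2, 17.9, 22.4 and 20.7 CPM in SAT and at 0.867, 0.622, 0.514 and 0.253 CPM in VAT. Both genes had no overlap between depots, and En1 fell by a log2 change of -5.23 ± 0.22 (adjusted p = 1.81e-11).

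Shox2, a factor of proximal limb growth, was at 49.4, 43.9, 54.2 and 46.9 CPM in SAT and at 4.03, 2.93, 3.52 and 4.3 CPM in VAT, with no overlap, and changed on the log2 scale by -3.72 ± 0.11 (adjusted p = 5.17e-13). Mab21l1, which was not on the list and was named for its size of change, fell from SAT to VAT by a log2 change of -5.17 ± 0.24 (adjusted p = 4.63e-11). Pitx1, which sets hindlimb identity, was low, at 4.86, 2.19, 4.6 and 2.22 CPM in SAT and at 0.238, 0, 0.0594 and 1.17 CPM in VAT. Its SAT libraries all lay above VAT, with a log2 change of -3.22 ± 0.75 (adjusted p = 0.00255) that became -5.11 (adjusted p = 5.14e-05) without VAT replicate 4. A few members of the list were higher in VAT. Alx1, a homeobox factor of craniofacial mesenchyme, stood at 0, 0.0255, 0 and 0 CPM in SAT and at 5.83, 5.77, 4.63 and 5.89 CPM in VAT, a ratio of 858 from 1 read in SAT (95% counting interval 154 to 33916; adjusted p = 3.1e-10). Sim2, a bHLH-PAS factor, stood at 0, 0.0255, 0.0667 and 0.118 CPM in SAT and at 3.94, 1.99, 3.58 and 3.69 CPM in VAT and rose on the log2 scale by 5.92 ± 0.61 (adjusted p = 7.21e-07), or 6.80 (adjusted p = 2.94e-06) without SAT replicate 4.

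**Figure D1:**
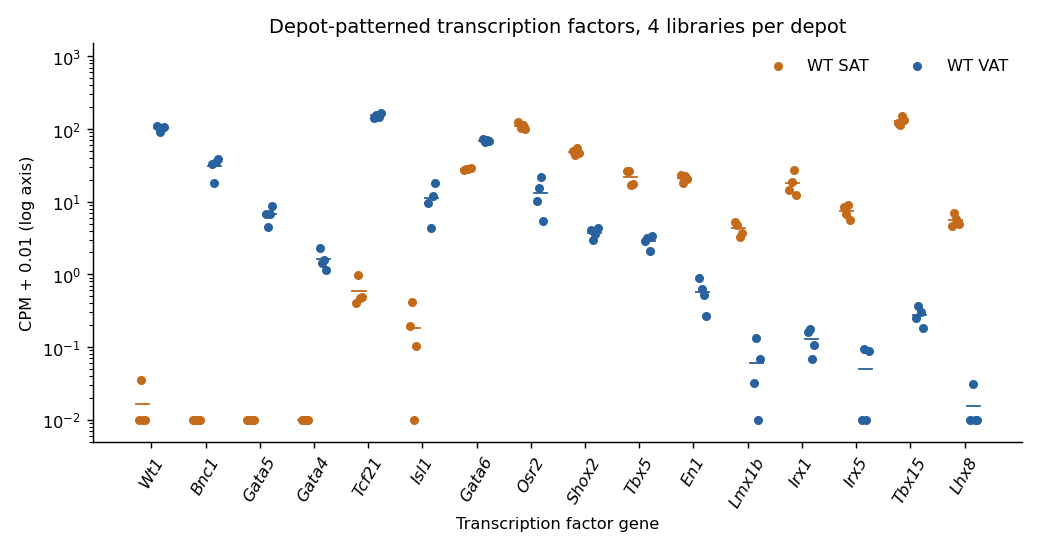
CPM + 0.01 (y axis, log scale) of 16 patterning transcription factors (x axis) in each of the 8 WT libraries, 1 point per library with SAT in orange and VAT in blue and a short line at the mean; a value of 0 is drawn at 0.01. The visceral factors Wt1, Tcf21, Gata4 and Gata5 lie high in VAT and at or near 0 in SAT, and the body wall factors lie the other way.

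Of 11 tested T-box genes, 2 were higher and 4 lower in VAT, with a median log2 change of -0.64. These are 18.2% higher and 36.4% lower, beside 19.1% and 17.6% of all genes. Tbx15, a factor of limb and trunk dermis and skeleton (chromosome 3, 99240381 to 99354259, plus strand), had the largest change of them, at 122, 113, 153 and 131 CPM in SAT and at 0.238, 0.353, 0.297 and 0.175 CPM in VAT. All VAT libraries lay far below all SAT libraries, and the log2 change was -8.92 ± 0.18 (adjusted p = 1.62e-15). Tbx5, the forelimb and heart factor, stood at 26.3, 26.5, 16.7 and 17.5 CPM in SAT and at 2.86, 3.19, 2.08 and 3.34 CPM in VAT, and Tbx1, a pharyngeal factor, at 1.62, 1.84, 2.5 and 1.84 CPM in SAT and at 0.065, 0.124, 0.297 and 0.175 CPM in VAT. Both lay lower in every VAT library, with log2 changes of -2.92 ± 0.23 (adjusted p = 2.76e-08) and -3.52 ± 0.37 (adjusted p = 8.96e-07). Tbx6 fell by a log2 change of -0.64 ± 0.14 (adjusted p = 0.00192) and was not called with library totals as the scale.

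Tbx3, a limb and mammary factor, went from 17.3, 19.4, 14.1 and 16.3 CPM in SAT to 36.9, 38.6, 38.4 and 33.8 CPM in VAT, and Tbx4, the hindlimb factor, from 0.365, 0.332, 0.3 and 0.589 to 1.15, 0.664, 1.74 and 1.54 CPM. Both were higher in every VAT library than in any SAT library, with log2 changes of 1.14 ± 0.11 (adjusted p = 2.9e-07) and 1.66 ± 0.33 (adjusted p = 0.000753). Tbx2, Tbx18 and Tbx21 did not pass the test, with log2 changes of 0.28, -0.19 and -0.96 (adjusted p = 0.114, 0.137 and 0.0647). Tbx2 was called without SAT replicate 2, at 0.42 (adjusted p = 0.0121), and Tbx21 without SAT replicate 4, at -1.17 (adjusted p = 0.0306). With libraries scaled to totals alone, the count of T-box genes became 3 higher and 3 lower, and Tbx18 turned to 0.11.

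Hox genes lie in 4 clusters whose 3' members act in anterior and whose 5' members act in posterior parts of the body. In cluster A, 6 genes were higher and 2 lower in VAT. The 6 increases were Hoxa2 to Hoxa7, with log2 changes of 0.97, 1.20, 1.30, 2.34, 1.18 and 1.32 in gene order. Hoxa5 led them, at 8.24, 8.88, 11.7 and 9.55 CPM in SAT and at 46.6, 47.2, 52.9 and 47.5 CPM in VAT, with a log2 change of 2.34 ± 0.11 (adjusted p = 4.67e-11) and no overlap. The decreases were Hoxa9 and Hoxa10, further 5', which went from 11.1, 14, 11.4 and 13.7 to 3.86, 3.03, 2.57 and 4.1 CPM and from 13.2, 13.1, 13.1 and 13.4 to 2.17, 1.6, 0.772 and 2.31 CPM. They fell by log2 changes of -1.89 ± 0.35 (adjusted p = 0.000407) and -2.95 ± 0.50 (adjusted p = 0.000147). Hoxa11 did not pass, at a log2 change of 2.70 ± 1.10 (adjusted p = 0.066), but did without SAT replicate 1, at 3.85 (adjusted p = 0.046), and was 1.74 (adjusted p = 0.263) without VAT replicate 4.

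Cluster C held a like division, with 28.6% of 7 tested genes higher and 42.9% lower, beside 19.1% and 17.6% of all genes. Hoxc9, Hoxc10 and Hoxc11 were lower in VAT, Hoxc4 and Hoxc5 higher, and Hoxc6 and Hoxc8 did not pass, at log2 changes of -0.03 and 0.24 (adjusted p = 0.789 and 0.317), that of Hoxc6 turning to 0.27 with libraries scaled to totals. Hoxc10, a gene of the lumbar and hindlimb region, stood at 37.4, 32.5, 32.9 and 32.6 CPM in SAT and at 1.52, 1.72, 1.37 and 1.94 CPM in VAT. It was thus lower in every VAT library, and SAT replicate 1 was the highest of the 4, with a log2 change of -4.37 ± 0.23 (adjusted p = 2.38e-10). Hoxc9 changed on the log2 scale by -1.60 ± 0.22 (adjusted p = 2.28e-05) and Hoxc11 by -4.71 ± 0.77 (adjusted p = 0.000107), the latter -5.42 (adjusted p = 0.000261) without VAT replicate 1. Hoxc4 rose on the log2 scale by 0.69 ± 0.10 (adjusted p = 1.94e-05). Hoxc5 passed narrowly, at a log2 change of 0.27 ± 0.10 (adjusted p = 0.0482), and lost its call in 7 of the 8 fits that left out 1 WT library (adjusted p of 0.0522 to 0.171), the exception being SAT replicate 1. Hoxc8 was called without SAT replicate 3, at 0.53 (adjusted p = 0.0028).

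In cluster B, Hoxb5, Hoxb8 and Hoxb9 were higher in VAT, and the other 5 tested genes did not pass. That is 37.5% higher and 0.00% lower, beside 19.1% and 17.6% of all genes. Hoxb5 rose on the log2 scale by 0.89 ± 0.18 (adjusted p = 0.000993) and Hoxb8 by 1.03 ± 0.28 (adjusted p = 0.00866). Hoxb9 stood at 0.0913, 0.0255, 0.234 and 0.259 CPM in SAT and at 0.433, 2.22, 2.57 and 0.272 CPM in VAT, with the highest values in VAT replicates 2 and 3 and VAT replicate 4 close to the SAT libraries, and its log2 change was 3.18 ± 0.81 (adjusted p = 0.00515). Hoxb2, Hoxb3, Hoxb4, Hoxb6 and Hoxb7 had log2 changes of -0.29, 0.16, -0.22, -0.19 and 0.15 (adjusted p from 0.239 to 0.61), and those of Hoxb2, Hoxb4 and Hoxb6 changed sign with libraries scaled to totals, that of Hoxb4 also without SAT replicate 3 (0.04). The table holds 8 genes of cluster D, of which 4 were tested, and all 4 were higher in VAT. A scarce gene can enter the test through the depot where it is high, which limits what this count shows. Hoxd3, Hoxd8 and Hoxd9 rose by log2 changes of 1.32 ± 0.21, 0.61 ± 0.12 and 1.17 ± 0.25 (adjusted p = 7.63e-05, 0.000591 and 0.00127). Hoxd10 stood at 0, 0, 0 and 0.0236 CPM in SAT and at 0.108, 0.311, 0.0594 and 0.33 CPM in VAT, a ratio of 31.7 from 1 read in SAT (95% counting interval 5.36 to 1281; adjusted p = 0.00521). Reads of neighbouring Hox genes and their antisense RNAs overlap, and without strand they cannot be told apart.

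**Figure D2:**
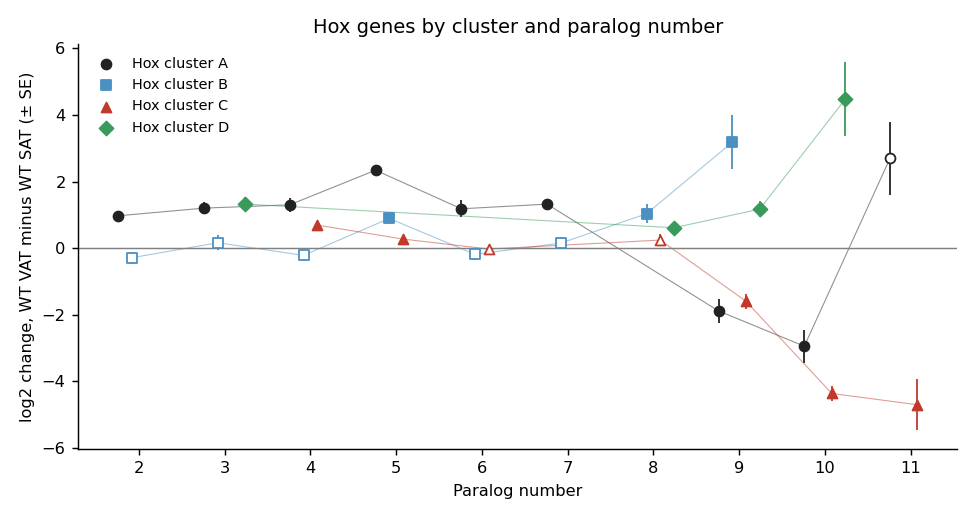
Log2 change of the tested Hox genes of paralog number 2 and above between WT VAT and WT SAT (y axis, positive when higher in VAT) against its paralog number (x axis), 1 colour and symbol per cluster, with error bars of 1 SE, filled symbols for called genes and open symbols for the rest. In cluster A the called genes are above 0 up to Hoxa7 and below it at Hoxa9 and Hoxa10, Hoxa11 lies at 2.70 without passing, and in cluster C the values run from 0.69 at Hoxc4 to -4.71 at Hoxc11.

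All 18 mesothelial markers on the list were higher in VAT, 17 of them at least 2-fold, with a median log2 change of 6.40, which stays 6.40 when the 2 members at 0 in SAT are set to their lower bounds. Summed, they reached 1467 to 2682 CPM in VAT, with the lowest sum in replicate 2, and 68.3 to 90.19 CPM in SAT. Upk3b, a uroplakin of mesothelium, stood at 0.137, 0.102, 0.3 and 0.0236 CPM in SAT and at 514, 291, 570 and 606 CPM in VAT, and Msln, mesothelin, at 0.0457, 0.102, 0.801 and 0.283 CPM in SAT and at 222, 152, 264 and 285 CPM in VAT. The depots were far apart for both, with log2 changes of 11.87 ± 0.44 (adjusted p = 3.57e-12) and 9.70 ± 0.46 (adjusted p = 6.3e-11). Msln changed on the log2 scale by 10.62 (adjusted p = 1.45e-10) without SAT replicate 3. Upk1b, a second uroplakin, had 1 read in SAT and 117, 70.9, 130 and 156 CPM in VAT, a ratio of 18517 (95% counting interval 3323 to 731414). Muc16, a membrane mucin that binds mesothelin, was at 0 in SAT and at 18.4, 13.6, 20.4 and 26.7 CPM in VAT, at least 1032-fold higher (adjusted p = 9.14e-08).

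Pkhd1l1, a large membrane protein of mesothelium, and Slpi, a protease inhibitor secreted by epithelia, changed on the log2 scale by 12.04 ± 0.41 (adjusted p = 1.59e-12) and 11.33 ± 0.40 (adjusted p = 3.06e-12). Without SAT replicate 3, Pkhd1l1 changed on the log2 scale by 12.65 (adjusted p = 3.43e-11). The keratins of simple epithelia moved too: Krt18 went from 0, 0.97, 0.334 and 1.84 to 18, 15.7, 29.1 and 20.4 CPM and Krt19 from 4.7, 6, 7.21 and 6.53 to 118, 83.8, 151 and 186 CPM. The log2 changes of these keratins were 4.69 ± 0.69 (adjusted p = 3.82e-05), or 5.59 (adjusted p = 5.27e-05) without SAT replicate 4, and 4.47 ± 0.30 (adjusted p = 3.74e-09). Other genes with the largest increases stood outside this list. Krt14, a keratin of stratified epithelia, had 1 read in SAT and 10.6, 14.7, 15.7 and 24.7 CPM in VAT, a ratio of 2584 (95% counting interval 463 to 102094). Chst4, a sulfotransferase, was at 0 in SAT and at 26, 15.6, 35 and 35.9 CPM in VAT, at least 1469-fold higher (adjusted p = 7.61e-07). Lrp2, the endocytic receptor megalin, and Stmn2, a microtubule regulator, changed on the log2 scale by 10.00 ± 0.38 (adjusted p = 4.93e-12) and 8.21 ± 0.51 (adjusted p = 1.67e-09), the latter 9.12 (adjusted p = 7.15e-09) without SAT replicate 3.

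Markers of other epithelia were low in both depots, though their sum was higher in every VAT library. Log2 changes of the tested members ran from -0.67 to 10.80. The epithelial and mammary list summed to 10.77 to 14.38 CPM in SAT and to 24.01 to 42.07 CPM in VAT, and the milk protein genes Csn2 and Lalba were at 0 throughout. Of 11 tested members, 4 were higher in VAT (36.4%) and 0 lower, beside 19.1% and 17.6% of all genes. Epcam, the epithelial adhesion molecule, stood at 0.137, 0.893, 0.167 and 1.04 CPM in SAT and at 2.17, 6.35, 6.73 and 3.65 CPM in VAT, a log2 change of 3.04 ± 0.69 (adjusted p = 0.00215), and Cdh1, E-cadherin, did not pass, at a log2 change of -0.39 ± 0.53 (adjusted p = 0.613). Prom1, the stem cell antigen CD133, was at 0.274, 0.102, 0.0334 and 0.189 CPM in SAT and at 0.91, 3.96, 8.51 and 0.0583 CPM in VAT. It was highest in VAT replicate 3 and within the SAT range in VAT replicate 4, and changed on the log2 scale by 4.38 ± 1.12 (adjusted p = 0.00507), or by 3.35 (adjusted p = 0.0251) without VAT replicate 3. Mmp7, an epithelial matrix protease, was at 0 in SAT and at 1.26, 2.2, 9.89 and 0 CPM in VAT, at least 175-fold higher (adjusted p = 0.00707), or at least 58.3-fold (adjusted p = 0.0142) without VAT replicate 3, which was the highest, and it was at 0 in VAT replicate 4 as well. Neither Mmp7 nor Prom1 passed under limma-voom (adjusted p = 0.18 and 0.361).

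Transcripts of the epididymis, the sperm duct that touches the gonadal fat pad, set VAT replicate 2 apart among the WT libraries. In KO, the male reproductive tract sum was 25.82, 28.88, 116.1 and 359.2 CPM in VAT and 13.34 to 19.3 CPM in SAT. KO VAT replicates 3 and 4 thus carried such transcripts too. The part of this tissue in the comparison of WT and KO was not tested. Lcn8, a lipocalin of the epididymis, stood at 0.0913, 0.23, 0.167 and 0.118 CPM in SAT and at 0.823, 127, 1.31 and 0.991 CPM in VAT, a log2 change of 7.75 ± 1.67 (adjusted p = 0.00137) that became 2.78 (adjusted p = 5.01e-05) without VAT replicate 2. Rnase10, an epididymal RNase homolog, was at 10.4, 9.03, 8.91 and 8.02 CPM in SAT and at 0.693, 57.5, 0.732 and 0.583 CPM in VAT. It was high in VAT replicate 2 and below every SAT library in the other 3 VAT libraries. Its log2 change was 0.71 ± 0.98 (adjusted p = 0.61) with all libraries and -3.76 (adjusted p = 7.05e-08) without VAT replicate 2. Lcn2, an acute-phase lipocalin also made by many epithelia, rose on the log2 scale by 6.31 ± 0.62 (adjusted p = 4.18e-07), or 5.55 (adjusted p = 6.26e-08) without that library, and Star, which carries cholesterol into mitochondria for steroid synthesis, by 2.0 ± 0.16 (adjusted p = 3.71e-08). The list holds 22 genes, of which 7 were tested. In VAT 4 were higher (57.1%) and 1 lower (14.3%), beside 19.1% and 17.6% of all genes, and 4 and 2 without VAT replicate 2. Over the WT libraries, 11 of the 22 had 0 counts in SAT and 1 in VAT. A scarce member can thus enter the test through the depot where it is high, which limits what the count higher shows. Leaving out another VAT library raised the count higher to 6.

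**Figure D3:**
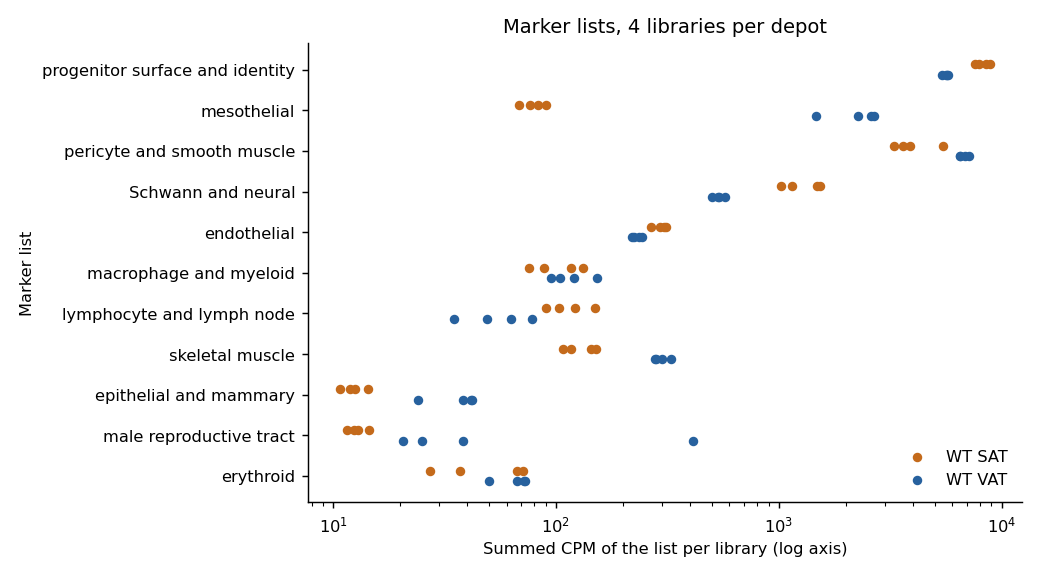
Summed CPM (x axis, log scale) of 11 marker lists (y axis), 1 point per WT library with SAT in orange and VAT in blue. The mesothelial sum runs from 1467 to 2682 CPM in VAT and from 68.3 to 90.19 CPM in SAT, and the male reproductive tract sum is 412.9 CPM in 1 VAT library.

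Genes on the list of progenitor surface and identity markers differed in both directions. Of 26 tested members, 11 were higher (42.3%) and 9 lower (34.6%) in VAT, beside 19.1% and 17.6% of all genes. Their median log2 change was 0.05, and their sum was 7601 to 8864 CPM in SAT and 5414 to 5725 CPM in VAT. Ly6a, the antigen Sca1, was at 1384, 1175, 2092 and 1116 CPM in SAT and at 441, 389, 382 and 406 CPM in VAT, and Cd34, a sialomucin of progenitors, at 1474, 1229, 1483 and 1208 CPM in SAT and at 840, 818, 798 and 828 CPM in VAT. Both were lower in every VAT library, by log2 changes of -1.83 ± 0.15 (adjusted p = 5.4e-08) and -0.72 ± 0.09 (adjusted p = 1.08e-05). Ly6c1, a relative of Ly6a, changed on the log2 scale by -2.29 ± 0.16 (adjusted p = 6.67e-09); the Ly6 genes are near-identical in part, so their counts are uncertain. Mme, the peptidase CD10, fell by a log2 change of -2.69 ± 0.38 (adjusted p = 2.56e-05), and Cd24a, a marker of early progenitors in mouse fat, by -0.98 ± 0.28 (adjusted p = 0.00946). The call of Cd24a was lost on the scale of library totals, at -0.68 (adjusted p = 0.052).

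Podxl, a sialomucin of podocytes and mesothelium, stood at 0.525, 0.765, 0.567 and 1.13 CPM in SAT and at 72.1, 30.5, 79.3 and 90.9 CPM in VAT and changed on the log2 scale by 6.49 ± 0.39 (adjusted p = 1.12e-09). Alpl, tissue-nonspecific alkaline phosphatase, rose from 11, 12, 9.61 and 10.1 to 40, 42.8, 38.9 and 34.6 CPM, a log2 change of 1.87 ± 0.18 (adjusted p = 2.39e-07) with no overlap. The receptors of platelet-derived growth factor had small differences. Pdgfra did not pass, at a log2 change of -0.28 ± 0.12 (adjusted p = 0.0806) or 0.02 with libraries scaled to totals, but did without SAT replicate 3, at -0.40 (adjusted p = 0.00235), and without VAT replicate 2, at -0.35 (adjusted p = 0.0434). Pdgfrb, at a log2 change of 0.33 ± 0.12 (adjusted p = 0.0408), passed, and was lost on leaving out SAT replicate 1, 3 or 4 or VAT replicate 1, 2 or 4 (log2 change of 0.23 to 0.34, adjusted p of 0.0634 to 0.112). Itgb1, the integrin beta1 chain, changed on the log2 scale by 0.34 ± 0.09 (adjusted p = 0.00595). Dcn did not pass, at a log2 change of 0.06 ± 0.10 (adjusted p = 0.673); it did without SAT replicate 3, at 0.20 (adjusted p = 0.0261), and turned to -0.03 without SAT replicate 2. Lum, the proteoglycan lumican, changed on the log2 scale by -0.29 ± 0.10 (adjusted p = 0.031), or 0.01 with libraries scaled to totals, a call lost without SAT replicate 4 (adjusted p = 0.106) and without VAT replicate 1, 3 or 4 (adjusted p of 0.071 to 0.0845).

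Stromal cells of fat include Dpp4-positive interstitial progenitors, Icam1-positive committed preadipocytes and F3-positive cells that restrain adipogenesis, each with known marker genes. Of 22 tested genes of the Dpp4 type, 20 were lower in VAT and 0 higher (median log2 change -1.70), and 18 of the decreases were at least 2-fold. The list summed to 6257 to 8660 CPM in SAT and to 2356 to 2567 CPM in VAT. Dpp4, a membrane peptidase (chromosome 2, 62330073 to 62412231, minus strand), was at 496, 458, 469 and 434 CPM in SAT and at 142, 119, 147 and 157 CPM in VAT. Pi16, a secreted peptidase inhibitor, was at 2858, 2308, 3420 and 2039 CPM in SAT and at 498, 563, 456 and 478 CPM in VAT. Dpp4, Icam1 and F3 were chosen after their values were seen, as the genes the lists are named for. Pi16, for which no list is named, was also chosen after its values were seen. For both Dpp4 and Pi16 every VAT library lay below every SAT library, with log2 changes of -1.72 ± 0.16 (adjusted p = 1.77e-07) and -2.41 ± 0.15 (adjusted p = 2e-09).

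Car8, a carbonic anhydrase relative, went from 45.6, 45.5, 44.6 and 39.6 CPM in SAT to 2.51, 3.34, 2.31 and 3.42 CPM in VAT, and Wnt2, a Wnt ligand, from 50.5, 52.3, 74.5 and 37 to 1.8, 1.45, 1.31 and 4.35 CPM. Their log2 changes were -3.92 ± 0.16 (adjusted p = 1.06e-11) and -4.58 ± 0.37 (adjusted p = 3.4e-08). Krtdap, Efhd1 and Opcml changed on the log2 scale by -2.83 ± 0.30, -2.74 ± 0.16 and -2.57 ± 0.14 (adjusted p = 9.52e-07, 7.66e-10 and 3.48e-10). The decrease ran through most of the list, beside 17.6% of all genes. In the fit without SAT replicate 3, 1 member was called higher. In the KO libraries, which are other libraries in the same fit, 21 of the 22 were lower and 0 higher, beside 20.0% and 23.3% of all genes.

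Genes of the Icam1 type moved both ways: of 21 tested, 6 were higher (28.6%) and 8 lower (38.1%) in VAT (median log2 change 0.03). The shares of all genes were 19.1% and 17.6%. The count higher was 4 without SAT replicate 1 or 3 or VAT replicate 1, 2 or 4, and the count lower was 4 without VAT replicate 1. Scaled to library totals, 8 were higher and 3 lower. Cxcl14, a chemokine of stroma, was at 291, 277, 303 and 324 CPM in SAT and at 39.4, 58.9, 56.5 and 58.5 CPM in VAT and changed on the log2 scale by -2.48 ± 0.19 (adjusted p = 2.3e-08). Col5a3, a fibrillar collagen chain, and Lpl, lipoprotein lipase, fell by log2 changes of -1.13 ± 0.12 (adjusted p = 1e-06) and -0.89 ± 0.14 (adjusted p = 9.76e-05). Agt, angiotensinogen, rose from 120, 87.6, 149 and 82.8 to 303, 329, 348 and 286 CPM, and Hsd11b1, which reactivates glucocorticoid, from 53.9, 57.1, 86.7 and 63.3 to 97.9, 129, 116 and 128 CPM. Both rose in every VAT library, by log2 changes of 1.53 ± 0.16 (adjusted p = 8.2e-07) and 0.85 ± 0.17 (adjusted p = 0.000623). Icam1, an adhesion molecule, was at 74.2, 61.8, 57 and 82.1 CPM in SAT and at 53.9, 51.3, 54.8 and 51.3 CPM in VAT. The ranges of Icam1 came close, its log2 change was -0.38 ± 0.13 (adjusted p = 0.0314), and the call was lost without SAT replicate 1 or 4 and without any VAT replicate (log2 change of -0.40 to -0.29, adjusted p of 0.0507 to 0.113).

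Of 14 tested genes of the F3 type, 8 were higher (57.1%) and 2 lower (14.3%) in VAT, beside 19.1% and 17.6% of all genes. Their median log2 change was 0.57. F3, tissue factor, was at 86.4, 125, 85 and 96.7 CPM in SAT and at 152, 203, 142 and 146 CPM in VAT, with the highest value in VAT replicate 2. Every VAT library was above every SAT library, and the log2 change was 0.71 ± 0.14 (adjusted p = 0.000469). Mgp, an inhibitor of calcification, rose from 79.1, 86.9, 123 and 80.6 to 444, 475, 501 and 372 CPM, a log2 change of 2.28 ± 0.15 (adjusted p = 3.76e-09). Fmo2 and Fmo1, flavin monooxygenases, rose on the log2 scale by 1.47 ± 0.17 (adjusted p = 2.98e-06) and 0.97 ± 0.09 (adjusted p = 1.46e-07). The 2 members lower in VAT were Igfbp3, a binding protein of insulin-like growth factors, and Clec11a, a secreted lectin, with log2 changes of -1.81 ± 0.28 (adjusted p = 6.33e-05) and -0.90 ± 0.12 (adjusted p = 9.69e-06).

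**Figure D4:**
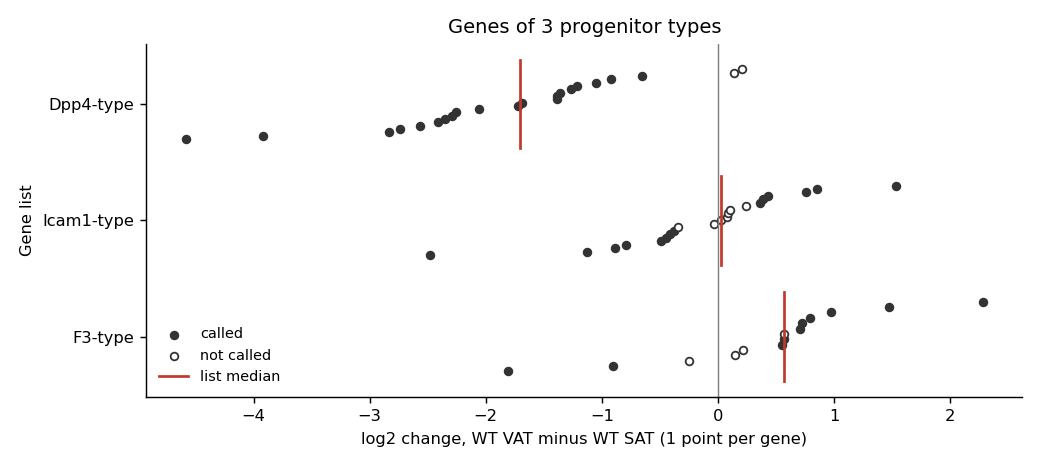
Log2 change between WT VAT and WT SAT (x axis, positive when higher in VAT) of each tested member of the Dpp4-type, Icam1-type and F3-type lists, 1 point per gene, filled when called and open when not, with the list median as a red line. The Dpp4-type median is -1.70, the Icam1-type median 0.03 and the F3-type median 0.57.

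Several genes of other roles had changes as large as the patterning factors. Il1r2, the decoy receptor of interleukin-1 (chromosome 1, 40074079 to 40125231, plus strand), was at 490, 338, 651 and 322 CPM in SAT and at 1.28, 1.04, 0.97 and 0.816 CPM in VAT. Akr1c18, which breaks down progesterone, was at 67.5, 88.7, 120 and 83.3 CPM in SAT and at 0.065, 0.228, 0.0791 and 0.272 CPM in VAT. Every VAT library lay below every SAT library for both, with log2 changes of -8.78 ± 0.28 (adjusted p = 7.68e-13) and -9.08 ± 0.39 (adjusted p = 2.32e-11). Akr1c14, a hydroxysteroid dehydrogenase of the same cluster, changed on the log2 scale by -6.02 ± 0.34 (adjusted p = 5.42e-10); members of this family are alike in sequence, and counts between them are uncertain. Rorb, a nuclear receptor, Cdh9, a cadherin, and Krt36, a hair keratin, fell by log2 changes of -7.05 ± 0.34, -6.71 ± 0.25 and -5.62 ± 0.28 (adjusted p = 7.18e-11, 3.57e-12 and 1.01e-10). Tmem28 changed on the log2 scale by -5.93 ± 0.27 (adjusted p = 4.67e-11).

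Collagen chains of types I and III, of interstitial matrix, were lower in VAT. Col1a1 was at 44005, 37228, 35591 and 44349 CPM in SAT and at 10523, 11564, 9159 and 8315 CPM in VAT, Col1a2 at 42081, 36288, 37919 and 41808 CPM in SAT and at 13139, 14045, 11867 and 10542 CPM in VAT, and Col3a1 at 81915, 71679, 65962 and 83213 CPM in SAT and at 26234, 26748, 23090 and 22990 CPM in VAT. Every VAT library lay below every SAT library for these 3 chains. Their log2 changes were -2.03 ± 0.11 (adjusted p = 4.72e-10), -1.67 ± 0.11 (adjusted p = 1.86e-09) and -1.61 ± 0.11 (adjusted p = 6.38e-09). Sparc, a collagen-binding glycoprotein, Fstl1, a secreted follistatin-like protein, and Col6a3, a type VI chain, fell by log2 changes of -1.14 ± 0.11, -1.05 ± 0.12 and -1.23 ± 0.16 (adjusted p = 3.41e-07, 1.66e-06 and 1.23e-05).

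Collagens as a family went both ways: of 43 tested, 14 were higher and 18 lower in VAT (median log2 change -0.29), beside 19.1% and 17.6% of all genes, and with libraries scaled to totals 16 were higher and 14 lower. Col6a5, a type VI chain (chromosome 9, 105856078 to 105960643, minus strand), was at 21.2, 16, 13.7 and 15.4 CPM in SAT and at 2091, 1792, 1351 and 1012 CPM in VAT, a log2 change of 6.55 ± 0.29 (adjusted p = 2.84e-11). Col4a6, a chain of basement membrane, rose from 7.94, 7.63, 5.47 and 7.21 to 154, 144, 126 and 104 CPM, and Col8a2, a network-forming chain, from 1.87, 2.68, 1.27 and 1.89 to 36.4, 40.5, 36.5 and 29.9 CPM. Both rose in every VAT library, by log2 changes of 4.22 ± 0.14 (adjusted p = 1.2e-12) and 4.20 ± 0.18 (adjusted p = 1.56e-11). Col6a4, a further type VI chain, rose on the log2 scale by 2.79 ± 0.37 (adjusted p = 1.06e-05), and Col26a1 fell by a log2 change of -3.74 ± 0.47 (adjusted p = 6.29e-06). In the KO libraries 19 collagens were higher and 15 lower, with a median of 0.02, beside 23.3% and 20.0% of all genes there.

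**Figure D5:**
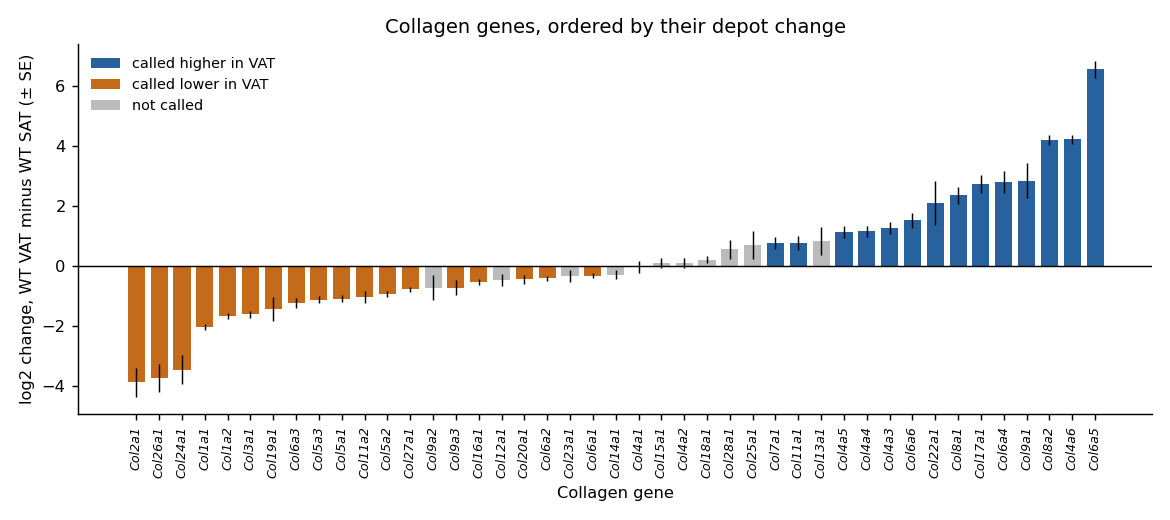
Log2 change between WT VAT and WT SAT (positive when higher in VAT) of each tested collagen gene, as bars sorted by value with error bars of 1 SE, blue when called higher, orange when called lower and grey when not called. Of the 43 genes, 14 are called higher and 18 lower, from -3.88 to 6.55.

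Elastic fibre genes and microfibril genes were as evenly divided, with 9 of 24 higher and 9 lower in VAT. That is 37.5% in each direction, beside 19.1% and 17.6% of all genes. Ltbp4 and Ltbp2, binding proteins of latent TGF-beta, rose on the log2 scale by 2.43 ± 0.14 (adjusted p = 5.81e-10) and 3.02 ± 0.23 (adjusted p = 2.32e-08), and Mfap4, a microfibril glycoprotein, by 2.06 ± 0.23 (adjusted p = 1.4e-06). The 4 VAT libraries of Ltbp4 lay above SAT, at 285, 321, 193 and 325 CPM in SAT and at 1564, 1687, 1354 and 1475 CPM in VAT. Fbln2, a fibulin, rose on the log2 scale by 1.03 ± 0.12 (adjusted p = 3.58e-06). Mfap2 and Emilin2, further elastic fibre proteins, fell by log2 changes of -1.48 ± 0.12 (adjusted p = 2.98e-08) and -1.39 ± 0.13 (adjusted p = 2.54e-07). Of 36 small leucine-rich proteoglycans and matricellular genes, 11 were higher (30.6%) and 15 lower (41.7%). Fmod, which binds fibrillar collagen, went from 30.5, 48.8, 33.5 and 37.4 to 398, 336, 413 and 300 CPM, a log2 change of 3.27 ± 0.18 (adjusted p = 4.04e-10). Epyc, its relative in cartilage, rose on the log2 scale by 4.47 ± 0.36 (adjusted p = 3.4e-08). Of the thrombospondins, 3 fell at least 2-fold, by log2 changes of -4.14 ± 0.55 for Thbs4, -3.07 ± 0.46 for Comp and -2.12 ± 0.16 for Thbs2 (adjusted p = 1.38e-05, 4.76e-05 and 1.49e-08). Thbs1, named after its values were seen, went the other way and rose on the log2 scale by 1.58 ± 0.23 (adjusted p = 2.75e-05), and Thbs3 did not pass, at a log2 change of -0.23 ± 0.10 (adjusted p = 0.0752).

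Of 35 tested matrix proteases and inhibitors, 12 were higher (34.3%) and 7 lower (20.0%) in VAT, beside 19.1% and 17.6% of all genes. Mmp3, stromelysin 1, was at 481, 516, 739 and 677 CPM in SAT and at 15.6, 14.5, 12.8 and 33 CPM in VAT, and Mmp27 at 67.3, 64.1, 73.1 and 63.8 CPM in SAT and at 4.33, 5.87, 4.16 and 3.42 CPM in VAT. They fell by log2 changes of -4.99 ± 0.36 (adjusted p = 7.92e-09) and -3.92 ± 0.17 (adjusted p = 2.54e-11). Adamts19 and Adamts3, secreted metalloproteases, rose on the log2 scale by 3.53 ± 0.18 (adjusted p = 1.54e-10) and 2.60 ± 0.17 (adjusted p = 1.99e-09). Of 42 integrins and cadherins, 15 were higher (35.7%) and 12 lower (28.6%), or 10 higher without SAT replicate 3. Cdh3, P-cadherin, Itga3, a laminin-binding integrin chain, and Cdh11, the cadherin of mesenchyme, rose by log2 changes of 5.05 ± 0.27, 2.27 ± 0.21 and 2.05 ± 0.21 (adjusted p = 3.1e-10, 1.61e-07 and 6.4e-07).

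Wnt proteins are secreted ligands that hold back adipogenesis, and R-spondins strengthen their signal through Lgr receptors. Of 46 tested Wnt pathway genes, 15 were higher and 15 lower in VAT, or 25 and 15 with libraries scaled to totals. The first counts are 32.6% in each direction, beside 19.1% and 17.6% of all genes. Wnt2b was at 2.97, 2.93, 2.47 and 3.56 CPM in SAT and at 70.1, 43.6, 69.4 and 70.6 CPM in VAT, Rspo1 at 6.64, 4.82, 8.58 and 4.22 CPM in SAT and at 116, 75.6, 124 and 112 CPM in VAT, and Rspo3 at 2.26, 3.27, 3.9 and 3.3 CPM in SAT and at 16.6, 24.3, 24.5 and 20.2 CPM in VAT. These ligands rose in every VAT library, by log2 changes of 4.40 ± 0.20 (adjusted p = 2.99e-11), 4.15 ± 0.25 (adjusted p = 1.24e-09) and 2.76 ± 0.23 (adjusted p = 4.31e-08). The ligand Wnt2, given above, and the receptor Lgr5 fell, Lgr5 from 4.22, 3.16, 8.68 and 7.31 to 0.368, 1.06, 0.297 and 0.408 CPM, a log2 change of -3.45 ± 0.46 (adjusted p = 1.21e-05). Rspo1 is also on the mesothelial list, whose sum was 1467 to 2682 CPM in VAT, and the part of mesothelial RNA in it was not tested.

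Of 58 genes of TGF-beta, activin and BMP signalling, 22 were higher (37.9%) and 14 lower (24.1%) in VAT. The shares of all genes were 19.1% and 17.6%. Bmp7, a ligand linked to brown fat, and Bmp8a, a further BMP ligand, fell from 66.3, 52.6, 69.4 and 48.4 to 11, 13.7, 12.3 and 12.4 CPM and from 5.41, 4.62, 5.24 and 4.08 to 0.303, 0.373, 0.0791 and 0.369 CPM. The depots did not overlap for either, and the log2 changes were -2.26 ± 0.16 (adjusted p = 1.11e-08) and -4.09 ± 0.28 (adjusted p = 5.41e-09). Inhbb, the beta B subunit of inhibin and activin, rose on the log2 scale by 4.37 ± 0.16 (adjusted p = 3.42e-12). Grem1, a secreted BMP antagonist, was at 0.0228, 0.0255, 0 and 0.118 CPM in SAT and at 5.53, 3.32, 1.4 and 2.99 CPM in VAT, a log2 change of 6.12 ± 0.71 (adjusted p = 2.84e-06), or 7.34 (adjusted p = 7.69e-06) without SAT replicate 4. Bmpr1b, a BMP receptor, rose on the log2 scale by 2.28 ± 0.17 (adjusted p = 1.15e-08).

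Of 22 FGF ligands and receptors, 6 were higher and 9 lower in VAT, a balance that turned to 7 and 4 with libraries scaled to totals. The first counts are 27.3% and 40.9%, beside 19.1% and 17.6% of all genes. Fgf1, a ligand with a role in adipose remodelling, stood at 33.7, 46.4, 28 and 24.6 CPM in SAT and at 380, 209, 391 and 413 CPM in VAT, lowest in VAT replicate 2. Its log2 change was 3.39 ± 0.25 (adjusted p = 1.05e-08). Fgf9 rose on the log2 scale by 2.78 ± 0.36 (adjusted p = 1.08e-05) and Fgf13, an intracellular member, fell by a log2 change of -2.89 ± 0.37 (adjusted p = 8.18e-06). The receptors Fgfr2 and Fgfr3 rose on the log2 scale by 1.25 ± 0.15 (adjusted p = 4.28e-06) and 1.47 ± 0.22 (adjusted p = 4.1e-05). Among 13 genes of the IGF family, 5 were higher (38.5%) and 3 lower (23.1%). Igf1, the growth factor, was at 233, 251, 313 and 329 CPM in SAT and at 1078, 1103, 910 and 737 CPM in VAT and rose on the log2 scale by 1.76 ± 0.16 (adjusted p = 1.93e-07); Igf2 rose on the log2 scale by 1.02 ± 0.21 (adjusted p = 0.00109). Igfbp2, a binding protein of these ligands, was at 0.16, 0.383, 0.133 and 0.424 CPM in SAT and at 22.1, 10.1, 27.3 and 15.7 CPM in VAT, and Igfbp5, another, at 3695, 3531, 2401 and 2823 CPM in SAT and at 1083, 876, 1021 and 924 CPM in VAT. They moved in opposite directions, by log2 changes of 6.04 ± 0.54 (adjusted p = 1.14e-07) and -1.67 ± 0.14 (adjusted p = 6.56e-08).

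Among the 7 genes of the PDGF family, 2 were higher (Pdgfb and Pdgfrb) and 3 lower (Pdgfc, Pdgfd and Pdgfrl), or 3 and 2 with libraries scaled to totals. The first counts are 28.6% and 42.9%, beside 19.1% and 17.6% of all genes. Pdgfb, a ligand of both receptors, changed on the log2 scale by 0.78 ± 0.16 (adjusted p = 0.00101), and Pdgfc and Pdgfd, ligands with a CUB domain, by -0.96 ± 0.12 (adjusted p = 5e-06) and -0.74 ± 0.08 (adjusted p = 2.07e-06). Pdgfrl, a receptor-like protein, changed on the log2 scale by -0.48 ± 0.10 (adjusted p = 0.00139), or -0.18 (adjusted p = 0.116) with libraries scaled to totals. Pdgfa did not pass, at a log2 change of 0.36 ± 0.16 (adjusted p = 0.103), but did without SAT replicate 3, at 0.55 (adjusted p = 0.00544). Of 65 axon guidance genes, 26 were higher (40.0%) and 16 lower (24.6%). Slit2, a repellent ligand, rose from 12.7, 11.5, 8.18 and 16.1 to 101, 105, 72 and 67.5 CPM, and Plxna4, a semaphorin receptor, from 0.365, 0.459, 0.2 and 0.259 to 22.1, 17.7, 17.5 and 21 CPM. Their log2 changes were 2.83 ± 0.19 (adjusted p = 4.91e-09) and 5.89 ± 0.32 (adjusted p = 3.52e-10), while the ligands Sema3b and Sema3e and the receptor Plxnb3 fell by log2 changes of -1.78 ± 0.10, -2.40 ± 0.25 and -1.71 ± 0.25 (adjusted p = 3.66e-10, 8.37e-07 and 3.17e-05).

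Chemokines draw leukocytes into tissue, and type I interferon response genes are induced by signalling through its receptor. Of 29 tested chemokines, 5 were higher and 12 lower in VAT (9 and 8 with libraries scaled to totals). The first counts are 17.2% and 41.4%, beside 19.1% and 17.6% of all genes. Cxcl13, which draws B cells, was at 64.9, 81.2, 126 and 97.9 CPM in SAT and at 7.56, 5.25, 6.31 and 5.52 CPM in VAT. Cxcl10, an interferon-induced ligand of CXCR3, was at 97.2, 58.2, 103 and 96.5 CPM in SAT and at 16.1, 11.9, 12.1 and 17.5 CPM in VAT. Both were lower in every VAT library, with log2 changes of -3.91 ± 0.38 (adjusted p = 3.98e-07) and -2.63 ± 0.21 (adjusted p = 3.35e-08). Cxcl9 and Ccl8 fell by log2 changes of -3.41 ± 0.37 (adjusted p = 1.09e-06) and -4.45 ± 0.31 (adjusted p = 6.07e-09), and Cx3cl1 and Ccl9 rose on the log2 scale by 1.10 ± 0.29 (adjusted p = 0.00695) and 1.76 ± 0.36 (adjusted p = 0.000898).

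Of 32 interferon response genes, 20 were lower and 1 higher in VAT (median log2 change -0.69), where 17.6% of all genes were lower. With libraries scaled to totals, 13 were lower and 2 higher. Usp18, which removes the ubiquitin-like protein ISG15, was at 42.2, 42.1, 39.7 and 25.4 CPM in SAT and at 7.56, 4.71, 4.99 and 6.8 CPM in VAT, and Ifit1, which binds foreign RNA, at 39.5, 55.1, 76.5 and 32 CPM in SAT and at 18.8, 9.52, 14.3 and 18.8 CPM in VAT. SAT was higher in every library for both, with log2 changes of -2.63 ± 0.18 (adjusted p = 5.12e-09) and -1.72 ± 0.25 (adjusted p = 3.63e-05). Zbp1, a sensor of Z-form nucleic acid, and Bst2, tetherin, fell by log2 changes of -2.32 ± 0.16 (adjusted p = 3.76e-09) and -1.57 ± 0.23 (adjusted p = 2.82e-05). Ifi44 was the 1 member higher in VAT, at a log2 change of 1.68 ± 0.29 (adjusted p = 0.00021). In KO, 30 of the 32 were lower and 0 higher, beside 20.0% and 23.3% of all genes there. Macrophage markers summed to 75.44 to 132.8 CPM in SAT and to 94.58 to 152.6 CPM in VAT, ranges that overlapped.

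Of 45 stromal cytokines, 11 (24.4%) were higher and 12 (26.7%) lower in VAT, beside 19.1% and 17.6% of all genes, or 20 and 9 with libraries scaled to totals. Tnfsf11, the cytokine RANKL, and Tnfrsf11b, its decoy receptor osteoprotegerin, both rose: Tnfrsf11b was at 0.822, 0.97, 0.634 and 0.99 CPM in SAT and at 37.4, 34.3, 48.1 and 52.6 CPM in VAT. The log2 changes were 3.15 ± 0.30 (adjusted p = 3.09e-07) and 5.64 ± 0.31 (adjusted p = 4.45e-10). Vegfc, the growth factor of lymphatic vessels, rose on the log2 scale by 2.44 ± 0.14 (adjusted p = 4.21e-10) and Ctf1, cardiotrophin, by 2.41 ± 0.34 (adjusted p = 2.16e-05), while Vegfa, the growth factor of blood vessels, and Edn1, the vasoconstrictor endothelin 1, fell by log2 changes of -1.26 ± 0.10 (adjusted p = 3.83e-08) and -2.49 ± 0.25 (adjusted p = 4.9e-07). Of 29 complement genes, 5 (17.2%) were higher and 8 (27.6%) lower, or 10 and 6 on library totals. C4b, a component of the classical pathway, was at 1430, 1218, 1575 and 1083 CPM in SAT and at 271, 194, 204 and 148 CPM in VAT, and changed on the log2 scale by -2.70 ± 0.17 (adjusted p = 1.67e-09). Clu, a chaperone that blocks the terminal complex, rose on the log2 scale by 3.09 ± 0.32 (adjusted p = 7.69e-07), C7 of that complex rose on the log2 scale by 1.54 ± 0.24 (adjusted p = 5.77e-05) and C6 fell by a log2 change of -1.76 ± 0.34 (adjusted p = 0.000546). C4b has a near copy in C4a, and counts between them are uncertain.

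Of 35 regulators of adipogenesis, 12 were lower and 3 higher in VAT, but with libraries scaled to totals 5 were lower and 16 higher. The first counts are 34.3% and 8.57%, beside 17.6% and 19.1% of all genes. Without SAT replicate 3, 6 were higher. The median log2 change was -0.03. Ebf1, an early B cell factor that drives adipogenesis, was at 358, 348, 559 and 362 CPM in SAT and at 216, 215, 231 and 246 CPM in VAT. Every VAT library was lower, at a log2 change of -0.84 ± 0.12 (adjusted p = 4.05e-05). Ebf3, its relative, and Zfp423, a zinc finger factor of committed preadipocytes, fell by log2 changes of -1.21 ± 0.12 (adjusted p = 3.09e-07) and -0.68 ± 0.14 (adjusted p = 0.000723). Foxc2, a forkhead factor, and Gata3, which holds back adipogenesis, rose on the log2 scale by 1.69 ± 0.22 (adjusted p = 1.06e-05) and 0.87 ± 0.20 (adjusted p = 0.00268).

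Genes of lipid storage and adipokines gave 5 higher and 8 lower of 38 (15 and 5 with libraries scaled to totals), and 3 higher without VAT replicate 1 or 2. The first counts are 13.2% and 21.1%, beside 19.1% and 17.6% of all genes. Nnat, neuronatin, Plin4, a lipid droplet protein, and Mgll, monoglyceride lipase, fell by log2 changes of -2.24 ± 0.30 (adjusted p = 1.55e-05), -1.44 ± 0.12 (adjusted p = 6.49e-08) and -1.01 ± 0.18 (adjusted p = 0.000341). Gpam, which starts triglyceride synthesis, and Fabp5, a fatty acid binding protein, rose on the log2 scale by 1.0 ± 0.25 (adjusted p = 0.00454) and 0.90 ± 0.15 (adjusted p = 0.000181). The adipocyte genes Adipoq and Plin1 did not pass, at a log2 change of -0.40 ± 0.24 (adjusted p = 0.215) and -0.25 ± 0.17 (adjusted p = 0.266), the latter 0.05 with libraries scaled to totals. Adipoq was called without SAT replicate 2, at -0.62 (adjusted p = 0.03).

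Markers of thermogenic and beige fat were lower in VAT for 9 of 15 tested members and higher for 1 (median log2 change -0.81). The shares of all genes were 17.6% lower and 19.1% higher. Cox8b, a subunit of cytochrome oxidase in brown fat, was at 5.25, 5.94, 8.28 and 3.96 CPM in SAT and at 0.347, 0.124, 0.376 and 0.136 CPM in VAT, and Cited1, a coregulator, at 10.7, 16.2, 18.5 and 8.37 CPM in SAT and at 0.65, 0.498, 0.613 and 0.389 CPM in VAT. Tmem26, a surface marker of beige cells, was at 25, 23.1, 21.9 and 26.3 CPM in SAT and at 3.38, 2.22, 3.11 and 1.87 CPM in VAT. All VAT libraries lay below SAT, with log2 changes of -4.56 ± 0.51 (adjusted p = 1.78e-06), -4.64 ± 0.52 (adjusted p = 1.63e-06) and -3.19 ± 0.15 (adjusted p = 6.3e-11). Lhx8, given above, is on this list too, and Slc36a2, an amino acid transporter, changed on the log2 scale by -1.04 ± 0.13 (adjusted p = 8.63e-06). The 1 member higher in VAT was P2rx5, an ATP-gated channel, at a log2 change of 0.46 ± 0.14 (adjusted p = 0.0133); it was not called with the 8 WT libraries alone (adjusted p = 0.0521), and 2 members were called higher in the fits without any 1 WT library other than VAT replicate 4.

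Retinoic acid is made from vitamin A and acts through nuclear receptors. Of 26 retinoid genes, 6 were higher and 8 lower in VAT, or 11 and 4 with libraries scaled to totals. The first counts are 23.1% and 30.8%, beside 19.1% and 17.6% of all genes. Aldh1a2, which makes retinoic acid and marks mesothelium, was at 1.16, 1.05, 0.901 and 0.377 CPM in SAT and at 44.4, 29, 51.9 and 50.4 CPM in VAT, and Stra6, the receptor that takes up retinol, at 0.251, 0.816, 0.501 and 0.33 CPM in SAT and at 2.54, 1.29, 1.94 and 1.87 CPM in VAT. Both rose, by log2 changes of 5.65 ± 0.35 (adjusted p = 1.52e-09) and 2.01 ± 0.36 (adjusted p = 0.00026). Adh7, which oxidises retinol, was at 50.8, 50.5, 87.3 and 50.6 CPM in SAT and at 1.65, 1.41, 1.07 and 0.797 CPM in VAT, with SAT replicate 3 the highest. It fell by a log2 change of -5.61 ± 0.27 (adjusted p = 7.27e-11), as did Cyp26b1, which breaks retinoic acid down, by -2.39 ± 0.31 (adjusted p = 9.02e-06), and the receptor Rxrg, by -1.50 ± 0.19 (adjusted p = 5.38e-06). Aldh1a2 is on the mesothelial list, summed at 1467 to 2682 CPM in VAT, and the part of mesothelial RNA in it was not tested.

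Of 39 nuclear receptors, 9 were higher and 10 lower in VAT (18 and 3 with libraries scaled to totals), which is 23.1% and 25.6% beside 19.1% and 17.6% of all genes. Nr4a1 was at 1211, 1121, 1018 and 997 CPM in SAT and at 1648, 1431, 1480 and 1580 CPM in VAT, Nr4a2 at 83.4, 105, 65.3 and 80.5 CPM in SAT and at 157, 143, 126 and 137 CPM in VAT, and Nr4a3 at 123, 124, 77.3 and 121 CPM in SAT and at 219, 172, 146 and 155 CPM in VAT. The 3 receptors of the family were higher in VAT, by log2 changes of 0.50 ± 0.07 (adjusted p = 4.16e-05), 0.75 ± 0.12 (adjusted p = 8.38e-05) and 0.64 ± 0.18 (adjusted p = 0.00897). Vdr, the vitamin D receptor, rose on the log2 scale by 1.14 ± 0.25 (adjusted p = 0.00157). Esr1, the oestrogen receptor alpha, was at 126, 146, 128 and 141 CPM in SAT and at 56.2, 53.8, 54.2 and 51.5 CPM in VAT and fell by a log2 change of -1.33 ± 0.11 (adjusted p = 4.35e-08). Cells taken from tissue by enzymes induce early response and heat shock genes, so these lists were read beside Nr4a1. Of 28 immediate early genes, which include the Nr4a genes, 9 were higher and 4 lower: Ctgf, a matricellular protein, Egr2 and Maff rose on the log2 scale by 2.13 ± 0.22 (adjusted p = 5.67e-07), 0.83 ± 0.12 (adjusted p = 3.5e-05) and 1.0 ± 0.10 (adjusted p = 7.29e-07), and Ier5 and Cyr61 fell by log2 changes of -0.77 ± 0.12 (adjusted p = 6.01e-05) and -0.55 ± 0.14 (adjusted p = 0.00484), Cyr61 without passing on library totals (adjusted p = 0.12). Of 18 heat shock and dissociation stress genes, 3 (16.7%) were higher and 10 (55.6%) lower, or 5 and 4 on library totals. Among them the chaperones Dnajb1 and Hsph1 fell by log2 changes of -0.97 ± 0.10 (adjusted p = 4.65e-07) and -0.92 ± 0.07 (adjusted p = 1.93e-08), and Gadd45b and Hspb1 rose on the log2 scale by 0.94 ± 0.10 (adjusted p = 1.09e-06) and 0.64 ± 0.13 (adjusted p = 0.000969). The part of cell handling in the Nr4a values was not tested.

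Cell division genes were higher in VAT at shares near that of all genes. Of 36 genes of G2 and mitosis, 7 were higher and 0 lower (median log2 change 0.27), and of 34 genes of S phase, 7 were higher and 1 lower (median 0.13). The mitotic count was 4 without SAT replicate 1 or 2 and 15 without SAT replicate 4, and the S phase count 3 without SAT replicate 2 and 4 without VAT replicate 4. Anln, which acts in cytokinesis, was at 8.86, 7.99, 3.8 and 9.12 CPM in SAT and at 20.3, 17.3, 16.6 and 17.6 CPM in VAT and changed on the log2 scale by 1.26 ± 0.19 (adjusted p = 4.95e-05). Bub1b, a spindle checkpoint kinase, and Uhrf1, which maintains DNA methylation, rose on the log2 scale by 1.09 ± 0.16 (adjusted p = 3.54e-05) and 0.73 ± 0.14 (adjusted p = 0.000598), and E2f1, a factor of S phase entry, fell by a log2 change of -1.42 ± 0.12 (adjusted p = 5.46e-08). The shares higher, 19.4% of mitotic and 20.6% of S phase genes, stood beside 19.1% of all genes.

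The metabolic lists are to be read beside the 36.7% of all tested genes that were called in either direction. Nuclear oxidative phosphorylation genes fell below that share, with 75 of 82 not called. Of the glycolysis and hypoxia genes, 14 of 26 were not called. Of 26 genes of glycolysis and hypoxia, 8 were higher and 4 lower, or 5 higher without SAT replicate 1. The first counts are 30.8% and 15.4%, beside 19.1% and 17.6% of all genes. Egln3, an oxygen-sensing prolyl hydroxylase, rose from 0.594, 0.663, 0.334 and 0.306 to 6.54, 4.71, 5.88 and 5 CPM, a log2 change of 3.52 ± 0.23 (adjusted p = 2.12e-09), and P4ha2, a collagen prolyl hydroxylase, fell by a log2 change of -1.32 ± 0.09 (adjusted p = 5.6e-09). Of 82 nuclear genes of oxidative phosphorylation, 0 were higher and 7 lower (median -0.17), or 16 higher and 2 lower with libraries scaled to totals. The count lower ran from 4 (without SAT replicate 3, VAT replicate 1 or VAT replicate 2) to 14 (without SAT replicate 2), with 13 without SAT replicate 4. Atp5e, a subunit of ATP synthase, changed on the log2 scale by -0.60 ± 0.21 (adjusted p = 0.0328), which was -0.21 (adjusted p = 0.126) without SAT replicate 3 and was lost too without VAT replicate 1, 2 or 4 (adjusted p of 0.0519 to 0.0802). Of 11 mitochondrially encoded genes, 3 were lower (0 without SAT replicate 3, 1 without VAT replicate 2 and 2 without any other library), and mt-Rnr1, a ribosomal RNA, changed on the log2 scale by -0.45 ± 0.14 (adjusted p = 0.0156), lost without SAT replicate 3, at -0.31 (adjusted p = 0.0564). Of 24 genes of cholesterol synthesis, 6 were higher and 2 lower, or 3 higher without SAT replicate 1 or VAT replicate 4 and 3 lower without SAT replicate 2 or VAT replicate 4. Hsd17b7, an enzyme of the pathway, rose on the log2 scale by 1.03 ± 0.20 (adjusted p = 0.000543), and Insig1, which holds the pathway back, fell by a log2 change of -0.54 ± 0.12 (adjusted p = 0.00144), or -0.24 (adjusted p = 0.0906) with libraries scaled to totals.

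Markers of mural cells were higher in VAT for 13 of 16 tested (81.2%) and lower for 0, beside 19.1% and 17.6% of all genes. Their median log2 change was 0.72, with sums of 3304 to 5462 CPM in SAT and 6530 to 7168 CPM in VAT. Acta2, smooth muscle actin, was at 776, 1095, 865 and 596 CPM in SAT and at 1420, 1410, 1697 and 1518 CPM in VAT, and Des, desmin, at 106, 132, 130 and 81.1 CPM in SAT and at 259, 247, 291 and 250 CPM in VAT. Every VAT library lay above SAT, with log2 changes of 0.86 ± 0.16 (adjusted p = 0.000435) and 1.22 ± 0.15 (adjusted p = 3.97e-06). Myh11, smooth muscle myosin, and Rgs5, a pericyte marker, rose on the log2 scale by 0.84 ± 0.18 (adjusted p = 0.00126) and 0.74 ± 0.21 (adjusted p = 0.00942). Schwann cell and neural markers went the other way, with 13 of 15 lower (86.7%) and 1 higher (6.67%). The count higher was 0 without SAT replicate 1, 3 or 4 or VAT replicate 3 or 4. These markers had sums of 1018 to 1530 CPM in SAT and 500.2 to 575 CPM in VAT. Sox10, the factor of glia, was at 6.92, 13.6, 8.08 and 9.17 CPM in SAT and at 1.89, 1.93, 1.29 and 2.24 CPM in VAT. Its log2 change was -2.36 ± 0.24 (adjusted p = 7.25e-07), and that of Mbp, myelin basic protein, was -2.40 ± 0.19 (adjusted p = 2.96e-08). The part of mural and Schwann cell RNA in the other results was not tested.

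Endothelial markers gave 5 higher (31.2%) and 3 lower (18.8%) of 16, beside 19.1% and 17.6% of all genes. Their sums were 266.2 to 312.3 CPM in SAT and 219.2 to 242.6 CPM in VAT. Kdr, a VEGF receptor, rose on the log2 scale by 2.06 ± 0.24 (adjusted p = 2.78e-06) and Pecam1 by 1.24 ± 0.25 (adjusted p = 0.000887), while Tek, the angiopoietin receptor, and Plvap, a protein of fenestrated endothelium, fell by log2 changes of -1.38 ± 0.11 (adjusted p = 3.99e-08) and -2.15 ± 0.15 (adjusted p = 6.2e-09). Macrophage markers gave 8 higher (44.4%) and 2 lower (11.1%) of 18. The count higher was 5 without SAT replicate 3, and 4 without SAT replicate 4 or VAT replicate 2. The count lower was 3 without VAT replicate 2, and 1 without VAT replicate 3 or 4. Csf1r, the receptor of macrophage growth factor, was at 7.99, 7.91, 7.54 and 6.34 CPM in SAT and at 15.4, 14.5, 14 and 19.5 CPM in VAT and changed on the log2 scale by 1.09 ± 0.18 (adjusted p = 0.000136), and Ptprc did not pass, at a log2 change of 0.43 ± 0.22 (adjusted p = 0.138). Lymphocyte markers gave 4 higher (28.6%) and 2 lower (14.3%) of 14. They gave 2 higher without SAT replicate 1 or 4, and 1 lower without SAT replicate 1 or VAT replicate 3 or 4. Their sums were 90.35 to 149.4 CPM in SAT and 34.85 to 78.1 CPM in VAT. Cxcl13, a chemokine of lymphoid stroma on that list that was named after its values were seen, was at 64.9, 81.2, 126 and 97.9 CPM in SAT and at 7.56, 5.25, 6.31 and 5.52 CPM in VAT, and without it the sums were 22.38 to 25.41 CPM in SAT and 29.6 to 70.53 CPM in VAT, the opposite order. Skeletal muscle markers gave 3 higher (23.1%) and 5 lower (38.5%) of 13, or 3 lower without SAT replicate 4 or VAT replicate 2 or 4. Their sums were 107 to 150.8 CPM in SAT and 278.7 to 327.1 CPM in VAT. Des, given above among the mural markers, made up most of the muscle sum in every WT library. The fast-fibre actinin Actn3 rose on the log2 scale by 3.47 ± 0.19 (adjusted p = 3.66e-10), while Myog, Pax7 and Myod1, the factors of muscle precursors, were at 0 in VAT. Erythroid markers gave 0 higher and 1 lower of 7, and Hbb-bs, a beta globin, and Alas2, of haem synthesis, did not pass, at a log2 change of 0.34 ± 0.36 (adjusted p = 0.496) and 0.44 ± 0.37 (adjusted p = 0.384). The part of these cell types in the other results was not tested.

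The same depot comparison in the 8 KO libraries, which share no library with the WT comparison, called 7292 genes (43.3% of those tested), with 3922 higher (23.3%) and 3370 lower (20.0%) in VAT. Both comparisons came from 1 fit of all 16 libraries and share its filter, scaling and estimate of the spread. Their calls are thus not separate tests. The 8 WT libraries fitted alone called 4918 genes. Of the genes higher in WT VAT, 2601 were also higher in KO VAT, 80.9% of the WT and 66.3% of the KO calls. Of the genes lower in WT VAT, 2157 were also lower in KO, 72.6% of the WT and 64.0% of the KO calls, and 9 genes were called in opposite directions. Side by side, Tcf21 changed on the log2 scale by 8.06 in WT and 8.39 in KO, Tbx15 by -8.92 in WT and -8.87 in KO, Col1a1 by -2.03 in WT and -1.86 in KO and Pi16 by -2.41 in WT and -2.72 in KO (adjusted p of the differences 0.59, 0.955, 0.608 and 0.467). Not every list was alike. Of 38 lipid storage and adipokine genes, 5 were higher and 8 lower in WT (median -0.03), and 23 and 3 in KO (median 0.77). Of 82 nuclear genes of oxidative phosphorylation, 0 were higher and 7 lower in WT, and 13 and 1 in KO. The difference between genotypes, tested below, passed for 6 of the former and 0 of the latter.

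The difference between the depot effects of WT and KO was tested directly. It passed for 45 genes (0.267% of those tested), 23 with a more positive change in WT and 22 with a more negative one, and 26 of them were called in WT. The count depended on the tool and on single libraries: DESeq2 gave 519, and fits that left out 1 of the 16 libraries 7 (without KO SAT replicate 4) to 149 (without KO VAT replicate 3), with 13 of these 16 fits more than 1.5 times away from 45. Adamts19 rose in both genotypes, by 3.53 in WT and 1.59 in KO, a difference of 1.94 ± 0.23 (adjusted p = 0.00434). Stac2, an adaptor protein of calcium channels, and Heph, a copper-dependent iron oxidase, changed on the log2 scale by 1.37 in WT and -0.11 in KO and by 0.81 in WT and -0.06 in KO (adjusted p of the differences 0.0135 and 0.0201). Rgcc, a regulator of the cell cycle, changed on the log2 scale by 0.48 in WT and 1.81 in KO (adjusted p of the difference 0.0141), and its WT change was 0.34 (adjusted p = 0.062) without SAT replicate 2.

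Trim30a, an interferon-induced TRIM protein, fell further in KO, with -1.08 in WT and -2.13 in KO (adjusted p of the difference 0.0201). Arntl, the clock factor BMAL1, changed on the log2 scale by 0.38 in WT and -0.50 in KO (0.0201), Pdgfd by -0.74 in WT and -1.41 in KO (0.0292) and Reep6 by -0.58 in WT and 0.82 in KO (0.0333), with the adjusted p of each difference in parentheses. Over 20 alternative fits, the difference kept its call in 20 for Adamts19, Stac2 and Rgcc, in 17 for Heph, in 16 for Trim30a and Arntl, in 11 for Pdgfd and in 10 for Reep6. The WT change of Reep6 was itself not called without VAT replicate 1 (adjusted p = 0.0579) or 4 (adjusted p = 0.0555).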

How the data were processed

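The authors deposited 1 table of read counts per gene, whole numbers with no normalization, for 16 libraries. The tools named in the submitters' processing notes are featureCounts, STAR, DESeq and FastQC, and the assembly is mm10; no version, annotation or strand setting is given. The table has 38720 gene lines, 27 of them with names turned into dates by a spreadsheet, which name no gene and were not described. Names were matched to GENCODE symbols (35628) or RefSeq synonyms (1764), and 1328 did not match.

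Genes were filtered with filterByExpr (16842 kept), scaled by TMM and tested with edgeR 4.0.16 in R 4.3.3 by the quasi-likelihood F test, with 1 coefficient for each of the 4 groups of all 16 libraries, which share 1 estimate of the spread (12 residual degrees of freedom, common biological coefficient of variation 0.156). A gene was called at a Benjamini-Hochberg adjusted p under 0.05, adjusted over all tested genes. The SE of a log2 change is its size over the square root of F. For a group with 0 reads the bound takes 3 counts over the group, and ratios from 1 read carry an exact 95% counting interval. Total counts were 34655519 to 49437944 in the WT libraries, so counting error is small for all but the lowest genes.

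Groups came from the labels, and no library pair held identical values. Alternatives were other scalings, filters, tools (DESeq2 1.42.0, limma-voom 3.58.1), a 2-fold threshold test, the WT libraries alone, a replicate block and leaving out each library; the differences between genotypes of single genes were recomputed after the data were seen. Scripts were tested on simulated data. Genes were named by rule: the 12 largest called increases and 12 largest decreases at a mean of 5 CPM or more without overlap, the 6 most abundant 2-fold genes in each direction, up to 5 members of each list with the largest changes and up to 2 against its majority, all tested Hox and T-box genes, a set of markers, and 8 genes of the genotype difference. The comparison and the gene lists were chosen with earlier results of these data known, so no list is independent support. Promoters of 4 factors came from RefSeq, and Wt1, Alx1, Irx1, Irx5 and Tbx15 were not among the printed ones. Some genes that the rule names are not reported here.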

Additional observations from a re-analysis of the deposited data

Results flagged for a closer look

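A value was singled out where 1 of 4 libraries of a depot lay so far from the other 3 that its gap to the nearest exceeded Dixon's 95% critical value for the range. Of 512 group values tested, 41 (8.01%) did so, where the nominal rate is about 1 in 20 (5%). That rate was not checked for CPM values. A group whose reads all lie in 1 library always passes this rule. This was so for Wt1, Alx1, Upk1b, Hoxd10 and Krt14 in SAT and for Lhx8 in VAT. The 8.01% is thus not a measured excess, and the tallies per library include these fixed outcomes. SAT replicates 2 and 3 and VAT replicate 2 held 9 each, SAT replicate 4 held 5, VAT replicates 1 and 3 held 3 each, VAT replicate 4 held 2 and SAT replicate 1 held 1.

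In VAT replicate 2 the epididymal genes Lcn8 and Rnase10 stood at 127 and 57.5 CPM. The same library had the highest F3 (203 CPM) and the lowest Fgf1 (209 CPM), Kdr (28.5 CPM), Wnt2b (43.6 CPM) and Fgf9 (6.43 CPM) of VAT. Lgr5 at 1.06 CPM and Lhx8 at 0.0207 CPM, from 1 read, were the highest of VAT. This is the library with a male reproductive tract sum of 412.9 CPM and the lowest mesothelial sum; the part of tissue outside the fat pad in these values was not tested.

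SAT replicate 3, the library least correlated with its own group, stood apart for Ebf1 (559 CPM), Atp5e (198 CPM), Adh7 (87.3 CPM), Nr4a3 (77.3 CPM), Krt36 (21.7 CPM) and 4 Hox genes: Hoxc9 (41.2 CPM), Hoxb4 (35.7 CPM), Hoxa3 (3.47 CPM) and Hoxa6 (1.17 CPM). SAT replicate 2 stood apart for Cxcl10 (58.2 CPM), Hoxc6 (35.8 CPM), Hoxb2 (4.54 CPM), Fgf9 (1.45 CPM), Tcf21 (0.97 CPM) and Col6a4 (0.893 CPM), and held the 1 read (0.0255 CPM) of each of Wt1, Upk1b and Alx1 in SAT.

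SAT replicate 4 stood apart for Car8 (39.6 CPM), Pdgfc (29 CPM) and Usp18 (25.4 CPM), and held the 1 SAT read (0.0236 CPM) of Hoxd10 and of Krt14. Hoxc10 was 37.4 CPM in SAT replicate 1. In VAT, replicate 1 stood apart for Dcn (9348 CPM), Hsph1 (69.5 CPM) and Cxcl14 (39.4 CPM), replicate 3 for Hoxa5 (52.9 CPM), Alx1 (4.63 CPM) and Tmem28 (0.0594 CPM), and replicate 4 for Mmp3 (33 CPM) and Wnt2 (4.35 CPM).

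For 11 named genes the depot effect differed between WT and KO by the direct test, given here as the WT minus the KO log2 change. It was positive for Adamts19 (1.94), Kdr (1.77), Stac2 (1.48), Trim30a (1.04), Arntl (0.88), Heph (0.87) and Pdgfd (0.67), and negative for Reep6 (-1.41), Rgcc (-1.33), Plin1 (-1.32) and Fabp5 (-1.19).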

How the results depend on the processing

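Of 259 named genes, 224 kept their call and direction in every alternative fit of the WT comparison. Between 4918 (the 8 WT libraries alone) and 6668 (DESeq2) genes were called under every alternative other than library totals, and fits without 1 WT library called 5395 to 6328. Scaling to library totals alone called 9168 genes, 7845 higher and 1323 lower in VAT, and turned Tbx18 to 0.11, Hoxb2 to 0.01, Hoxb4 to 0.08, Hoxb6 to 0.11, Hoxc6 to 0.27 (adjusted p = 0.011), Pdgfra to 0.02, Plin1 to 0.05 and Lum to 0.01 on the log2 scale. With 1 WT library left out, Hoxb4 ran from -0.32 to 0.04 (without SAT replicate 3), Dcn from -0.03 (without SAT replicate 2) to 0.20 and Rnase10 from -3.76 (without VAT replicate 2) to 1.11. Rnase10 was -2.17 by limma-voom and -2.20 with the replicate block. The 2-fold threshold test passed 1368 genes (879 higher and 489 lower). limma-voom also left Hoxb9 and Lcn8 uncalled (adjusted p = 0.0642 and 0.228). Counts of list members were within 1.5 times the reported count in 1404 recomputations and outside it in 164.

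The count of genes whose depot effect differed between genotypes was the least stable: 45 as reported, 519 by DESeq2, 11 with the replicate block, and 7 to 149 when 1 of the 16 libraries was left out; the cause was not tested. The deviations of same-numbered WT SAT and VAT libraries correlated at 0.144, 0.119, 0.113 and -0.0414; 1 pair was under 0.1 and not every library correlated best with its own number, so the numbers were not taken as pairing. The replicate block called 6168 genes, 5811 of them called in the same direction without it, and ended the calls of Hoxc5 (adjusted p = 0.087), Icam1 (0.0742) and Lum (0.0573). Depth limits genes with few reads in 1 depot, where ratios span orders of magnitude.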
